A study of Mus musculus with 3 samples.

Results

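AP-1 is a dimeric transcription factor built from leucine zipper proteins of the FOS, JUN, BATF and ATF families. The 10 genes described here were Fos, Fosb, Fosl1, Fosl2, Jun, Junb, Jund, Batf, Batf3 and Atf3, taken by name from the 32285 genes of the expression matrices, and all 10 were present. They were taken by family rather than by a cut on their values, although earlier results of these data were known. Their levels were compared across skin cell types in 3 single-cell libraries of mouse dorsal skin, 1 library per condition. CON was the control skin, which per the study received vehicle and no UV. UV was skin irradiated on alternate days over 12 weeks with mixed light, whose UVA part was 0.60 mW/cm2 and whose UVB part was 3.5 mW/cm2, and given vehicle. Rux was skin given the same irradiation followed by topical ointment with 1.5% ruxolitinib, an inhibitor of the kinases JAK1 and JAK2. All 3 groups were labelled wild-type female C57BL/6J mice of 8 weeks. For UV and Rux this label cannot be the age at sampling, because the irradiation alone lasted longer. Whole-thickness skin was taken 24 h after the last exposure. The number of mice behind each library was not given in the sources used here.

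JUN proteins bind DNA as dimers with each other or with FOS partners, whereas FOS proteins need a JUN partner. Fos, Fosb, Jun, Junb and Atf3 are immediate-early genes: growth factors, UV light, wounding and stress switch on their transcription within minutes through MAP kinases and pre-existing factors such as SRF and CREB. In skin, AP-1 is known as a regulator of keratinocyte differentiation, of matrix metalloproteinases and of inflammatory genes. The same genes are also known to be induced while a tissue is digested into single cells, so a list of 26 other immediate-early genes is set beside the members in each class. Each condition was 1 library, so condition and library, with its digestion and capture, cannot be told apart, no test between conditions was possible, and every interval below is a 95% interval that covers counting error only.

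The promoters of Fos, Jun and Junb are shown because Fos and Junb were the members past 2-fold in FB-like cells and Jun is the partner that both families share. The RefSeq promoter table on GRCm38.p6 held 9 of the 10 members, and Fosl1 was not matched. Each sequence is the 250 bases before the transcription start, 5′ to 3′ on the gene's strand. Capitals mark matches to TGACG, the half-site of the CREB/ATF element, to TGACATCA, the variant AP-1 site known from the Jun promoter, to CCAAT, and to TATAAA, on either strand.
Fos, chr12:85473640-85473889, plus strand: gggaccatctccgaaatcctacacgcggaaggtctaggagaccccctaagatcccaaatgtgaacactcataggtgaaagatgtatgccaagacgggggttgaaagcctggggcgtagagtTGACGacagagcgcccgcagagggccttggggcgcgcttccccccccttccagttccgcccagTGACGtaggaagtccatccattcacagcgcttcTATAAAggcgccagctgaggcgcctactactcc
Jun, chr4:95052223-95052472, minus strand: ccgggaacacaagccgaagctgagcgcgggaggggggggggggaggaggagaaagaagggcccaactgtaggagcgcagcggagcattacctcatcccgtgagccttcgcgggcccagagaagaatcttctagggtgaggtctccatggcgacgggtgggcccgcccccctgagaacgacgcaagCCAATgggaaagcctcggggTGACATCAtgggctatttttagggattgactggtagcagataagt
Junb, chr8:84978749-84978998, minus strand: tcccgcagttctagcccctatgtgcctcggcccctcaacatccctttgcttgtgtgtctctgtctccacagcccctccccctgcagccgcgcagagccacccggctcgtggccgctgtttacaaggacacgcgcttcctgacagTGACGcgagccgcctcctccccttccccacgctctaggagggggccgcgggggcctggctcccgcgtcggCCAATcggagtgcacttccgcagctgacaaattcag
The Fos promoter held the CREB/ATF half-site 2 times, at -129 to -125 and at -66 to -62 from the start, and a TATA box at -33 to -28. In Jun, TGACATCA lay at -45 to -38 and CCAAT at -65 to -61. In Junb, the half-site lay at -106 to -102 and CCAAT at -36 to -32. TGACG, or its complement CGTCA, was also found in Fosb, Batf and Atf3, and TTCNNNGAA, the element bound by STAT proteins downstream of JAK kinases, only in Batf3. No match to any searched motif was found in Fosl2 or Jund, and none of the 9 promoters held TGACTCA, TGACGTCA or a CArG box. Sites outside the 250 bases were not searched. The RefSeq start used was not always the end of the gene as given below. The Atf3, Batf3 and Fosl2 windows lay inside the gene, and the Jund window ended at 70697738, ahead of the gene start at 70698949. Of all 32851 promoters in the table, 17.8% held TGACG, 2.93% TGACATCA, 33.9% CCAAT, 12.4% TATAAA, 7.02% TTCNNNGAA, 4.46% TGACTCA, 1.55% TGACGTCA and 1.47% a CArG box. These matches describe letters only and say nothing about binding in these cells.

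The members lie on 7 chromosomes of mm10. Fos (chr12:85473890-85477273) and Batf (chr12:85686669-85709087) share chromosome 12, Batf3 (chr1:191097847-191108945) and Atf3 (chr1:191170296-191218039) are close neighbours on chromosome 1, and Junb (chr8:84974484-84978718) and Jund (chr8:70698949-70700616) lie on chromosome 8. Fosb is at chr7:19302696-19310051, Fosl1 at chr19:5447547-5455946, Fosl2 at chr5:32135801-32157842 and Jun at chr4:95049034-95052222.

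The filters left 10777 CON, 10231 UV and 9299 Rux cells, with medians of 7549, 7661 and 9432 UMIs (unique molecular identifiers, each counting 1 captured RNA molecule) per cell. The libraries went against their label in 1 respect: the labels say female, but the Y-linked genes Ddx3y (110 to 121 CPM), Uty (78.5 to 84.2 CPM) and Eif2s3y (58.1 to 74.4 CPM) were expressed in all 3 libraries, and Xist had 13 to 14 UMIs per library. Pairs of libraries shared 28 to 50 cell barcodes, and no barcode was in all 3. A level below is CPM, a scaled count: the UMIs of a gene summed over all cells of a class in 1 library, divided by all UMIs of those cells and scaled to 1000000. The kit reads the 3′ end of each transcript, so CPM is not scaled by gene length, and levels are compared between libraries and cell classes rather than between genes.

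Cell classes were named from marker genes and are called FB-like (fibroblast), EPI-like (epithelial, hair follicle and sebaceous cells included), LEC-like and VEC-like (lymphatic and vascular endothelium), PCY-like (pericyte), SCH-like (Schwann), MEL-like (melanocyte), MC-like (mast cell), MYE-like (myeloid), LYM-like (lymphocyte) and NEU-like (neutrophil). Classes under 50 cells in a library were given no ratio. Dcn, which encodes the matrix proteoglycan decorin, was detected in 99.1% of the FB-like cells in CON, 99.4% in UV and 99.6% in Rux. FB-like cells made up 31.5% of CON, 49.7% of UV and 54.0% of Rux cells, that is 3399, 5080 and 5018 cells, with sums of 23668133, 39047705 and 55957309 UMIs.

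Among FOS genes, Fos, the founding member and a standard readout of cell stimulation, was highest in CON in FB-like cells. Its level was 3736 CPM in CON, 1717 CPM in UV and 1892 CPM in Rux. CON was high, and UV and Rux lay close together. The log2 ratio was -1.12 (-1.14 to -1.11) for UV over CON, 0.14 (0.13 to 0.15) for Rux over UV and -0.98 (-0.99 to -0.97) for Rux over CON. Of 8368 genes tested in FB-like cells for UV over CON, 2.15% were at least 2-fold lower and 2.32% at least 2-fold higher, and 2 of the 8 members that passed the filter on low values (a mean of 10 CPM and 100 UMIs) were 2-fold lower, Fos and Junb. None was 2-fold higher. The median log2 ratio of the 8 members was -0.52, and that of all genes tested was -0.11.

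Fosb, which encodes a FOS protein with a long-lived splice form, did not follow Fos. It stood at 1809 CPM in CON, 1816 CPM in UV and 2110 CPM in Rux. CON and UV differed by less than counting error, with a log2 ratio of 0.01 (-0.01 to 0.02), and Rux was highest, at 0.22 (0.20 to 0.23) over UV. Fosl1, which encodes FRA1 and is known as a late and growth-linked member, was lowest in CON, at 102.5 CPM against 139 CPM in UV and 136 CPM in Rux. Its log2 ratio was 0.44 (0.37 to 0.51) for UV over CON and -0.02 (-0.07 to 0.03) for Rux over UV. Fosl2, which encodes FRA2, went down in order from CON to UV to Rux, at 291, 200 and 172 CPM, with log2 ratios of -0.54 (-0.58 to -0.49) and -0.22 (-0.26 to -0.18) for the 2 steps.

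Among JUN genes, Junb, which encodes a JUN protein with weaker transactivation than JUN and a known target of STAT3 and of immediate-early signalling, had the lowest UV over CON ratio of all members in FB-like cells. It was at 3797 CPM in CON (3772 to 3822), 1423 CPM in UV (1411 to 1435) and 1394 CPM in Rux (1384 to 1403). CON was thus more than 2-fold above both irradiated libraries, which lay close together. The log2 ratio was -1.42 (-1.43 to -1.40) for UV over CON, -0.03 (-0.05 to -0.01) for Rux over UV and -1.45 (-1.46 to -1.43) for Rux over CON. Jun, which encodes the strongest transactivator of the family, was at 1349, 947 and 1008 CPM, with -0.51 (-0.53 to -0.49) for UV over CON and 0.09 (0.07 to 0.11) for Rux over UV. Jund, known for steady expression in resting cells, was at 1667, 1589 and 1607 CPM. Its 3 libraries were nearly level, with -0.07 (-0.09 to -0.05) and 0.02 (0.00 to 0.03).

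Atf3, a stress-induced partner of JUN that often acts as a repressor, was at 922 CPM in CON, 587 CPM in UV and 461 CPM in Rux. It was the member with the lowest Rux over UV ratio among the 8 that passed, -0.35 (-0.37 to -0.32), after -0.65 (-0.68 to -0.62) for UV over CON. Batf and Batf3, which partner JUN proteins in lymphocytes and dendritic cells, were scarce in FB-like cells and did not pass the filter. Batf had 275, 249 and 179 UMIs in the 3 libraries, or 11.6, 6.38 and 3.20 CPM, and Batf3 1.23, 1.64 and 1.30 CPM.

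Between Rux and UV, 1.67% of 8159 genes tested in FB-like cells were at least 2-fold lower and 0.760% at least 2-fold higher, and no member was in either set. Between Rux and CON, 3.50% of 8342 genes were at least 2-fold lower and 1 of 8 members was, Junb. Atf3 (-0.998) and Fos (-0.98) lay just outside. UV over CON and Rux over CON share the CON library. Dividing by a median-of-ratios size factor instead of the UMI total moved every UV over CON value of FB-like cells by the same 0.11 and changed neither of the 2 counts. It put Jund above 0, so no direction is given for Jund.

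**Figure D1:**
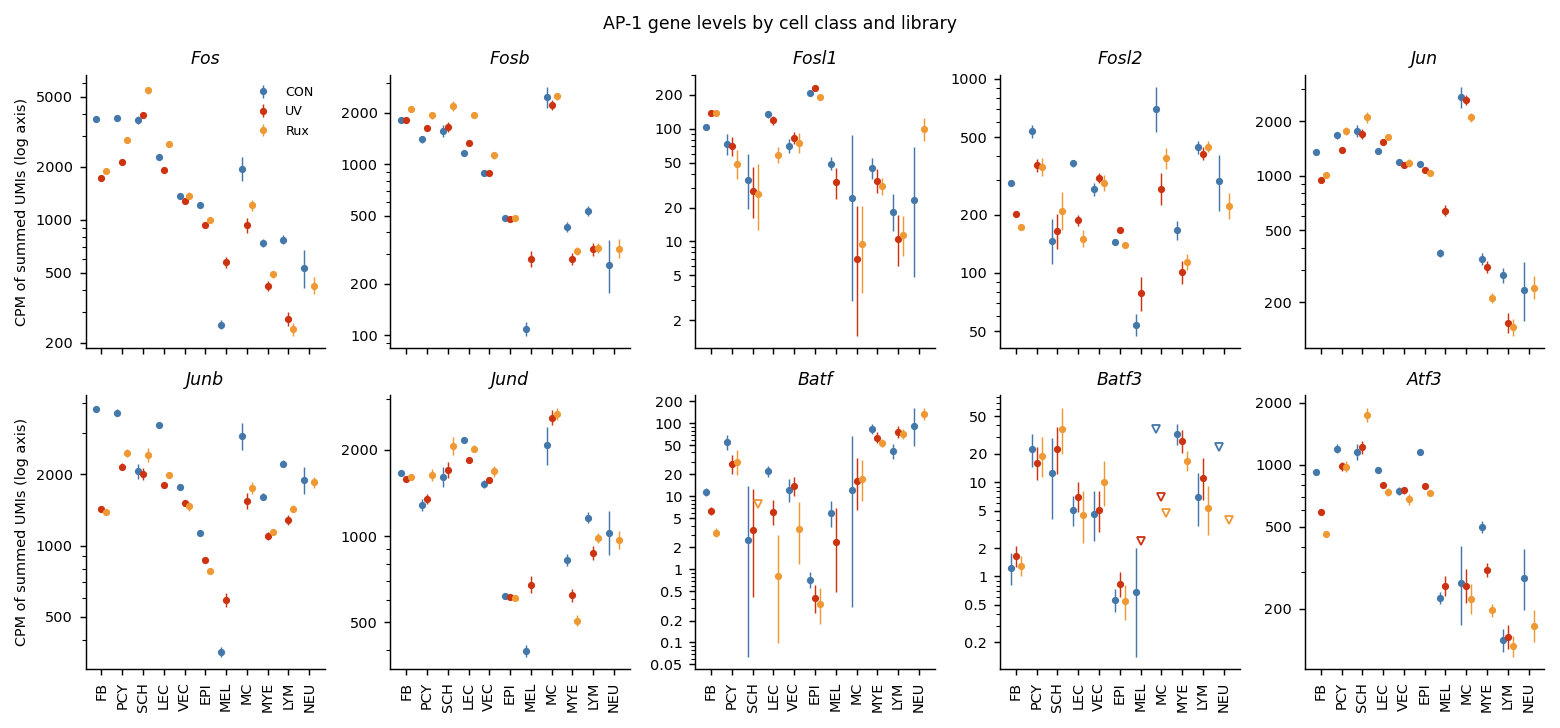
Levels of the 10 members (CPM of summed UMIs, log axis, a separate range for each gene) in 11 cell classes of CON (blue), UV (red) and Rux (orange), for classes with 50 or more cells. Points carry 95% Poisson intervals for counting error only, and open triangles mark the level of 3 counts where no UMI was seen. CON stands above UV and Rux for Fos and Junb in FB-like cells (3736 and 3797 CPM), while Jund is nearly level there (1589 to 1667 CPM).

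The members were also counted cell by cell at equal depth. Each FB-like cell was thinned to 2000 UMIs, which kept 3251 of 3399 CON, 4826 of 5080 UV and 4880 of 5018 Rux cells. A Fos UMI was then found in 79.4% of CON, 53.0% of UV and 55.7% of Rux cells (89.6%, 74.7% and 81.1% before thinning). Junb was found in 90.7%, 75.2% and 75.1% (96.5%, 91.5% and 94.3% before thinning). Fosb was found in 80.3%, 80.7% and 85.1%, and Jund in 88.4%, 88.2% and 87.0%. Jun gave 69.5%, 57.7% and 57.6%, Atf3 58.5%, 44.5% and 39.2%, Fosl2 39.3%, 28.8% and 28.0%, and Fosl1 15.8%, 21.4% and 21.1%. The median cell held 4 Fos UMIs of 2000 in CON and 1 in UV and in Rux, and the top 10% of cells held 37.0%, 54.7% and 50.6% of all Fos UMIs. Fos was thus spread over most CON cells and concentrated in fewer UV and Rux cells. For Junb the median cell held 5, 2 and 2 UMIs. As a measure of free RNA, erythroid cells, which should lack these genes, held Fos at 241 CPM in UV (36 cells, median 1888.5 UMIs) and 338 CPM in Rux (93 cells, median 1207 UMIs), below the 1717 and 1892 CPM of FB-like cells. By share of thinned cells the background was higher: 41.2% of 17 UV and 20% of 20 Rux erythroid cells had a Fos UMI, against 53.0% and 55.7% of FB-like cells, whose median depths were 7338 and 9974 UMIs. Haemoglobin RNA filled much of the erythroid totals, with Hbb-bs alone at 375690 CPM in UV and 276860 CPM in Rux. That lowers the CPM and the thinned share of every other gene there, so these values can understate free RNA. The part of free RNA in the levels and shares of FB-like cells was not tested.

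Within each family the mixture of members shifted, and this measure does not depend on the library total. Junb made up 55.7% of the JUN family UMIs of FB-like cells in CON, 35.9% in UV and 34.8% in Rux. Jund made up 24.5%, 40.1% and 40.1%, and Jun 19.8%, 23.9% and 25.2%. In the FOS family, Fos made up 62.9%, 44.3% and 43.9%, Fosb 30.5%, 46.9% and 49.0%, Fosl2 4.90%, 5.18% and 3.99%, and Fosl1 1.73%, 3.58% and 3.17%. Junb and Fos were thus the leading members in CON, and Jund and Fosb in UV and Rux. Across the 10 classes compared between UV and CON, the Junb share was lower in UV in 10, by 0.71 points in MEL-like to 19.8 points in FB-like cells, and the Jund share was higher in 10. The Fos share was lower in 8 of 10 and the Fosb share higher in 9 of 10. These classes share their libraries, so they are not independent of each other.

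**Figure D2:**
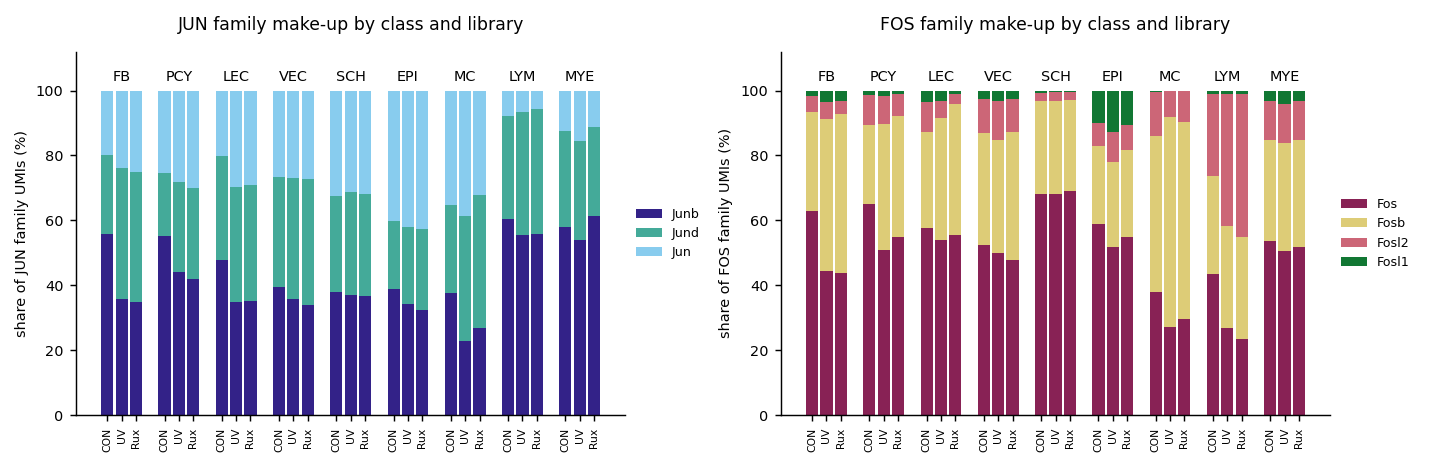
Make-up of the JUN family (left) and FOS family (right) as stacked shares of family UMIs (%), for 9 cell classes in CON, UV and Rux. The Junb part shrinks from 55.7% to 35.9% between CON and UV in FB-like cells, while it is 38.0%, 37.2% and 36.7% in SCH-like cells.

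FB-like cells were divided into 14 subclusters, made with the members and the stress lists left out of the variable genes. Subcluster 0 was led by Gadd45g, Socs3, Cebpd, Col8a1, Zfp36, Lsamp, Egr1, Plcxd3, Abca8a and Myoc. It held 1522 CON, 439 UV and 241 Rux cells, or 44.8%, 8.64% and 4.80% of the FB-like cells. In it, Fos stood at 5578 CPM in CON, 5037 CPM in UV and 2907 CPM in Rux. Junb stood at 5409, 2284 and 1046 CPM there. The libraries thus differed little for Fos between CON and UV inside this subcluster (log2 ratio -0.15, -0.17 to -0.12), while Junb kept a ratio of -1.24 (-1.28 to -1.21). Between Rux and UV, the 8 members that passed in subcluster 0 were all lower in Rux. Junb (-1.13), Fosl2 (-1.17) and Atf3 (-1.51) made 3 of 8 at least 2-fold lower, where 4.51% of 5915 genes tested were. Jun (-0.82), Fos (-0.79), Fosb (-0.72), Fosl1 (-0.59) and Jund (-0.31) were lower by less. Of all genes tested there, 3327 were above and 2588 below 0.

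Over the 10 subclusters with at least 50 cells in CON and UV, the log2 ratio of Junb was below 0 in 10, from -1.92 in subcluster 2 (led by Dtna, Sbsn and Dmkn) to -0.04 (-0.14 to 0.06) in subcluster 8 (led by Ednrb, Acta2 and Tagln). In subcluster 2 Junb was at 5049 CPM in CON, 1334 CPM in UV and 1378 CPM in Rux. In subcluster 8 it was at 1004, 977 and 1098 CPM, nearly level. Fosl2 was below 0 in 10, from -1.08 to -0.02. Fos was below 0 in 8 of 10, from -2.13 in subcluster 2 to 0.18 in subcluster 3 (led by Thbs4, Bmp5 and Cilp). Fosb was above 0 in 9 of 10, with the exception of subcluster 2 (-0.49), and reached 0.81 in subcluster 8. Jun was below 0 in 5 and above 0 in 5, and Atf3 below 0 in 6 and above 0 in 4. Within subclusters the Junb share of JUN family UMIs was lower in UV than in CON in 10 of 10, by 5.07 to 26.8 points, and the Fosb share of FOS family UMIs was higher in 10 of 10, by 2.35 to 21.7 points.

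For Rux over UV, 12 subclusters could be compared. Fos was above 0 in 8, most in subcluster 5 (led by Gdf10, Apoe and Agt; 590 CPM in UV and 1627 CPM in Rux, log2 ratio 1.46) and in subcluster 3 (589 and 1468 CPM, 1.32). Fos was lowest in subcluster 12 (-0.80) and subcluster 0 (-0.79). Fosb was above 0 in 10 of 12. Junb was above 0 in 8, up to 0.52 in subcluster 9 (led by Hpgd, Postn and Lpl). Most subclusters thus held somewhat more Fos and Fosb in Rux than in UV, and subcluster 0 held less. Subcluster 11, led by Saa3, Hp and Lcn2, had 1 CON, 12 UV and 422 Rux cells and allowed no comparison.

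The mixture of subclusters bears on the class values. With the subclusters weighted as in CON, the UV over CON log2 ratio of FB-like cells was -0.31 for Fos, -1.15 for Junb, 0.12 for Jun, -0.08 for Atf3 and 0.30 for Fosb, so that 1 member, Junb, was past 2-fold in place of 2. Jun thus turned direction against the class. Fosl1 turned as well, to -0.16, and it was also below 0 in 8 of the 10 subclusters although it was above 0 in the class. For Rux over UV the same weighting gave -0.38 for Fos, -0.39 for Jun and -0.16 for Fosb, all above 0 in the class, and -0.91 for Atf3. Without subcluster 0 the UV over CON log2 ratio was -0.83 for Fos and -1.04 for Junb. Of the genes that led subcluster 0, Gadd45g, Socs3, Cebpd, Zfp36 and Egr1 belong to the list of other immediate-early genes. Neither alternative therefore separates the mixture of subclusters from the immediate-early state of the cells. Both alternatives were chosen after the data had been seen.

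**Figure D3:**
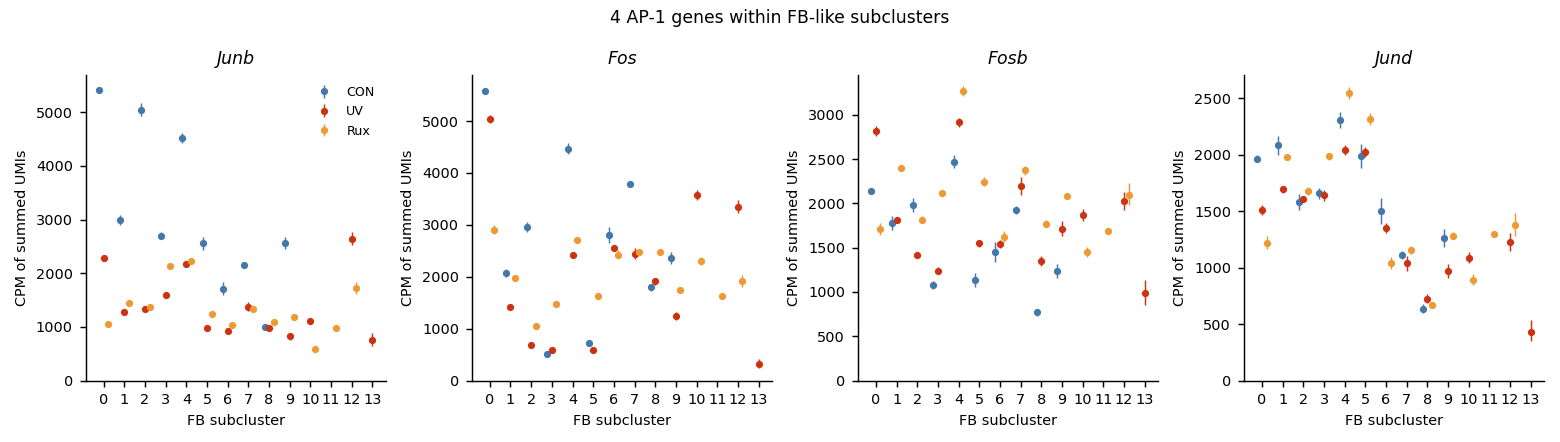
CPM of Junb, Fos, Fosb and Jund in FB-like subclusters 0 to 13 of CON (blue), UV (red) and Rux (orange), with 95% Poisson intervals for counting error, for subclusters with 50 or more cells. Junb is highest in CON in 9 of the 10 subclusters that have both CON and UV points, and in subcluster 8 the 3 libraries lie between 977 and 1098 CPM.

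Other immediate-early genes were set beside the members. A list of 26 immediate-early genes outside the 10 members took 1.87% of the UMIs of the median FB-like cell in CON, 0.943% in UV and 1.08% in Rux. In UV over CON, 24 of the 26 were below 0, 12 of them at least 2-fold, with a median log2 ratio of -0.90. Egr1, a zinc-finger immediate-early factor, was at 3436, 1202 and 1298 CPM, and Zfp36, which degrades AU-rich mRNAs, at 2659, 969 and 969 CPM. Gadd45b was at 1562, 470 and 524 CPM. The others past 2-fold were Nr4a2, Nr4a1, Ier2, Gadd45g, Cebpd, Ppp1r15a, Egr2, Socs3 and Btg2, from -1.86 (Nr4a2) to -1.05 (Btg2). Fosl1 (0.44) lay above the highest value of that list, 0.28. Fosb (0.01) and Jund (-0.07) lay inside its range, above its median. A second list differed from it: 14 heat shock and ubiquitin genes took 0.743%, 0.762% and 0.691% of summed UMIs, with a median log2 ratio of -0.14 for UV over CON, although Hspa1a (-1.17) and Hspa1b (-1.19) were past 2-fold. The mitochondrial share was 1.42%, 1.57% and 1.63% in the median cell. Summed markers of epithelial cells in FB-like cells (9 genes) were 498 CPM in CON, 216 CPM in UV and 234 CPM in Rux. Whether digestion or free RNA contributed to the member values was not tested.

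Cells were therefore compared within bins of the other immediate-early genes. All FB-like cells were ranked by the share of the 26-gene list and split into 5 equal bins. The top bin held 1422 CON, 607 UV and 671 Rux cells, and the bottom bin 387, 1306 and 1007. Fos followed the bins: from bottom to top it went from 650 to 6432 CPM in CON, from 353 to 6690 CPM in UV and from 560 to 6368 CPM in Rux. In the top bin the 3 libraries therefore held about the same Fos. Within bins the Fos ratio of UV over CON was below 0 in 3 of 5 (-0.88, -1.01 and -0.32) and above 0 in the upper ones (0.25 and 0.06), with a mean of -0.38. Junb remained below 0 in 5 of 5, from -0.10 to -0.71, with a mean of -0.39. In the top bin Junb was at 6336 CPM in CON, 3871 CPM in UV and 3674 CPM in Rux. Fosb was above 0 in 5 of 5, from 0.48 to 0.96, with a mean of 0.72. In the top bin it was at 2722, 4290 and 4333 CPM. Atf3 was above 0 in 5 of 5 (mean 0.29), and Jun in 3 of 5 (mean 0.20), so that both, with Fosl2 (mean 0.16), turned direction against the whole class. Jund had a mean of 0.24. No member was past 2-fold on the mean over bins. For Rux over UV, Atf3 (mean -0.56), Fosl2 (mean -0.30) and Junb (mean -0.23) were below 0 in 5 of 5 bins, and Fosb above 0 in 5 of 5 (mean 0.09). The bins are made from genes that are known to be induced with the members. Matching on them can therefore also take out a difference between libraries that both share, whatever its origin. Each bin is also a range, and whether the share was equal between libraries inside a bin was not tested. The upper quartile of the share over all FB-like cells was 3.46% in CON, 1.49% in UV and 1.69% in Rux.

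**Figure D4:**
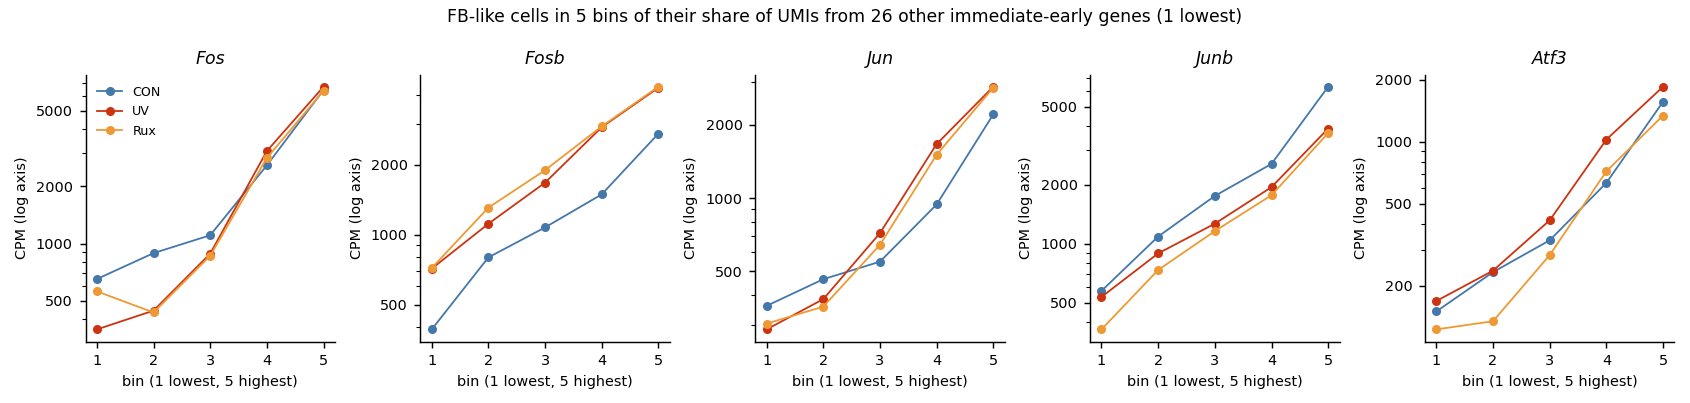
CPM (log axis) of 5 members in FB-like cells of CON (blue), UV (red) and Rux (orange), split into 5 bins by the share of UMIs from 26 other immediate-early genes, lowest in bin 1. Fos converges in bin 5 (6368 to 6690 CPM), Junb stays highest in CON and Fosb lowest in CON in every bin.

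Among other classes, the levels of the members followed cell type. Classes with too few cells in a library to be given a ratio were not ranked there. Fos was highest in PCY-like cells in CON (3764 CPM) and in SCH-like cells in UV and Rux (3933 and 5439 CPM), and lowest in MEL-like cells in CON (253 CPM) and in LYM-like cells in UV and Rux (274 and 239 CPM). The span from top to bottom was 14.9-fold, 14.4-fold and 22.8-fold, and in CON the top 3 classes, PCY-like, FB-like and SCH-like, overlapped with their neighbours in counting error. Fosb was highest in MC-like cells in all 3 libraries (2462, 2221 and 2488 CPM). Jun was also highest in MC-like cells in CON and UV (2705 and 2618 CPM), and in SCH-like cells in Rux (2102 CPM), where MC-like cells (2099 CPM) overlapped with it. Junb was highest in FB-like cells in CON and in PCY-like cells in UV and Rux (2156 and 2465 CPM), where SCH-like cells overlapped with them. Jund spanned the least in CON, 6.06-fold, from LEC-like cells (2169 CPM), with which MC-like cells overlapped, down to muscle cells. Fosl1 was highest in muscle progenitor cells in CON (256 CPM) and in EPI-like cells in UV and Rux (230 and 192 CPM). Muscle progenitor cells numbered 156 in CON, 47 in UV and 34 in Rux, and were ranked in CON only. Fosl2 was highest in LYM-like cells in UV and Rux (412 and 448 CPM), overlapping with PCY-like cells in UV and with MC-like cells in Rux. In CON it was highest in MC-like cells (703 CPM), whose interval overlapped with that of PCY-like cells (539 CPM). Atf3 was highest in PCY-like cells in CON (1200 CPM), overlapping with SCH-like cells, and in SCH-like cells in UV and Rux (1214 and 1753 CPM).

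In EPI-like cells the UV over CON differences were small. Fos was at 1209, 934 and 999 CPM in CON, UV and Rux, Junb at 1129, 870 and 784 CPM, and Atf3 at 1150, 793 and 732 CPM. All 3 were highest in CON, with UV over CON log2 ratios of -0.37 (-0.39 to -0.36), -0.38 (-0.39 to -0.36) and -0.54 (-0.55 to -0.52). Jun (-0.13), Fosb (-0.04) and Jund (-0.01) were nearer to 0. Fosl1 (208, 230 and 192 CPM; 0.15) and Fosl2 (144, 166 and 140 CPM; 0.21) were highest in UV. No member was 2-fold lower in UV over CON or in Rux over UV, where 0.978% and 0.924% of all genes tested were. Epithelial clusters went in different directions: in cluster 7 (led by Itga2, Slc16a7 and Epgn) Fos stood at 816 (CON) and 351 CPM (UV), and in cluster 13 (led by Gm973, Adamts19 and Il31ra) at 1834 and 3026 CPM. Over 9 such clusters Fos was below 0 in 5 and Fosb in 2. The class drew on different clusters in each library: cluster 5 (led by histone genes and Lhx2) held 1052 CON, 278 UV and 105 Rux cells, cluster 17 (led by Fcgbp and Col17a1) 481, 18 and 73, cluster 32 (led by Krt77, Krt10 and Krt1) 242, 7 and 22, and cluster 25 (led by Wincr1 and Itga2) 12, 245 and 148. Krt10, a keratin of differentiating epidermis, was at 999.6, 157 and 523 CPM in the class. The class values of the members therefore compare different mixtures of epithelial cells. The other immediate-early genes took 0.763%, 0.586% and 0.585% of the UMIs of the median EPI-like cell, and 22 of 26 were below 0 in UV over CON. Matched on that share in 5 bins, the mean UV over CON ratio was -0.34 for Fos. Its bins went both ways, 2 below and 3 above 0, from -1.28 to 0.33. The means of Junb (0.02), Atf3 (0.07), Jun (0.25), Fosb (0.12) and Jund (0.21) were above 0, against below 0 in the class. Fosl1 (mean 0.69) and Fosl2 (mean 0.42) were above 0 in 5 of 5 bins. For Fosl1 the lowest bin stood at 2.60, and bins 3 (0.01) and 4 (0.04) had intervals that included 0.

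Vessel-associated and nerve-associated cells differed among themselves. In LEC-like cells Junb was at 3234, 1801 and 1982 CPM (UV over CON -0.84, -0.88 to -0.81) and Fosl2 at 368, 187 and 150 CPM (-0.98, -1.09 to -0.86). Both were highest in CON. Fos was at 2263, 1928 and 2710 CPM and Fosb at 1157, 1333 and 1951 CPM, highest in Rux. Batf had 136 UMIs in CON, 27 in UV and 2 in Rux, or 22.2, 6.12 and 0.822 CPM, a UV over CON ratio of -1.84 (-2.51 to -1.25). Batf passed the filter on low values only through CON, where it was high, so its ratio is not counted as a result. No other member was at least 2-fold lower in UV than in CON in this class, where 1.13% of genes were. Fosl1, at 134, 119 and 58.4 CPM, was the 1 of 8 members 2-fold lower in Rux than in UV (-1.02, -1.30 to -0.76), where 1.31% of genes were.

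In PCY-like cells Fos was at 3764, 2132 and 2835 CPM and Junb at 3652, 2156 and 2465 CPM, with UV over CON ratios of -0.82 and -0.76. The other immediate-early genes took 2.11%, 1.45% and 1.30% of the UMIs of the median LEC-like cell and 2.23%, 1.38% and 1.35% of those of the median PCY-like cell. For UV over CON, 24 of 25 of them were below 0 in LEC-like and 22 of 26 in PCY-like cells. Summed epithelial markers were 539, 169 and 178 CPM in LEC-like and 593, 222 and 280 CPM in PCY-like cells. Their part in these results was not tested. In VEC-like cells, where the share was 1.61%, 1.52% and 1.43%, Fos was at 1360, 1277 and 1371 CPM and Junb at 1771, 1520 and 1466 CPM. The log2 ratios of the 8 members that passed there ran from -0.22 to 0.24 for UV over CON. They ran from -0.14 to 0.33 for Rux over UV and from -0.27 to 0.34 for Rux over CON. In SCH-like cells the UV over CON intervals of all 7 members that passed the filter included 0: Fos was at 3703, 3933 and 5439 CPM, Junb at 2058, 2013 and 2417 CPM and Atf3 at 1156, 1214 and 1753 CPM. In Rux over UV the 7 members that passed in SCH-like cells were above 0, from 0.26 for Junb to 0.53 for Atf3. The interval of Fosl2 (-0.10 to 0.79) included 0. Of all 1827 genes tested there, 924 were above and 903 below 0. Of the 26 other immediate-early genes 20 were above 0 in the same comparison, and their share of UMIs in the median SCH-like cell was 1.04% in CON, 1.04% in UV and 1.53% in Rux. The part of that response in the member values was not tested.

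MEL-like cells went the other way from FB-like cells. Fos was at 253 CPM in CON (155 cells), 573 CPM in UV (65 cells) and 274 CPM in Rux (38 cells), and Fosb at 109, 280 and 263 CPM. UV was highest for both. The UV over CON ratio was 1.18 (1.04 to 1.32) for Fos and 1.37 (1.16 to 1.57) for Fosb, which made 2 of 8 members at least 2-fold higher, against 1.34% of all genes tested. Jun (0.78), Jund (0.77) and Junb (0.73) were also above 0, and Fosl1 (-0.54) below. In the same cells the median depth was 21941 UMIs in CON and 10537 in UV, the share of the other immediate-early genes 0.213% and 0.338%, and summed fibroblast markers (6 genes) 320 and 652 CPM. Their part in the result was not tested.

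**Figure D5:**
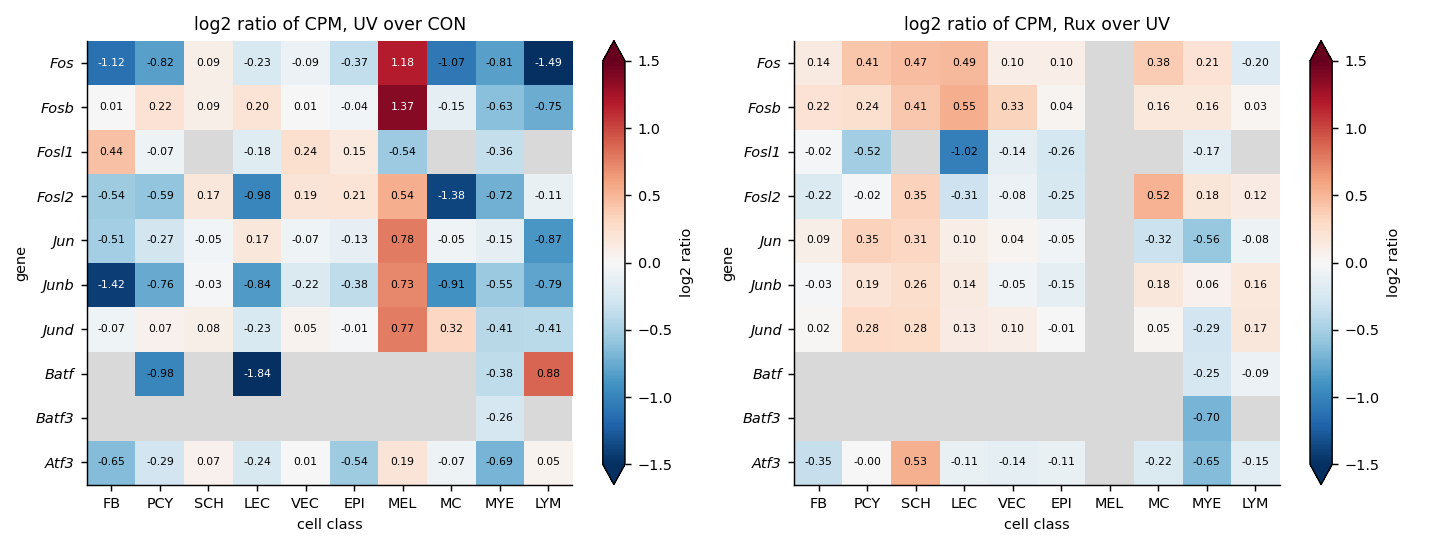
Log2 ratios of CPM for UV over CON (left) and Rux over UV (right), 10 members by 10 cell classes, with blue below 0 and red above 0, and grey where a gene did not pass the filter on low values or a class had under 50 cells. Fos is at -1.12 in FB-like, -1.49 in LYM-like and 1.18 in MEL-like cells for UV over CON. The 7 members shown for SCH-like cells are above 0 for Rux over UV, where 924 of all 1827 genes tested were.

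Mast cells were few in CON (62 cells, against 170 in UV and 209 in Rux) and shallow, with a median of 944 UMIs in CON. Fos was at 1953, 932 and 1213 CPM and Fosl2 at 703, 272 and 391 CPM. Their UV over CON ratios of -1.07 (-1.33 to -0.79) and -1.38 (-1.84 to -0.89) made 2 of 7 members at least 2-fold lower, where 3.51% of genes were. Junb was at 2899, 1550 and 1751 CPM (-0.91), while Jun (2705, 2618 and 2099 CPM) and Fosb (2462, 2221 and 2488 CPM) were nearly level between CON and UV. Summed epithelial markers in these cells were 970, 315 and 334 CPM, and the other immediate-early genes took 1.58%, 0.873% and 1.21% of the UMIs of the median cell. Their part was not tested.

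Batf was highest in NEU-like cells in CON and Rux, and in LYM-like cells among the classes ranked in UV. NEU-like cells numbered 22 in UV, too few to be ranked there. Their Batf level in UV, given below and drawn from few UMIs, was above that of LYM-like cells. In CON the order was NEU-like, MYE-like (83.6 CPM), PCY-like (55.3 CPM) and LYM-like (41.7 CPM). There NEU-like overlapped with MYE-like cells, and PCY-like with LYM-like cells, in counting error. PCY-like cells held 67, 45 and 28 Batf UMIs, or 55.3, 27.9 and 29.6 CPM. Batf3 was highest in MYE-like cells in CON and UV (32.7 and 27.3 CPM) and in SCH-like cells in Rux (36.7 CPM from 14 UMIs), each overlapping with the next class. In LYM-like cells Fos was at 770, 274 and 239 CPM and Junb at 2217, 1283 and 1432 CPM. CON was highest for both, with UV over CON ratios of -1.49 (-1.66 to -1.33) and -0.79 (-0.87 to -0.71). Fos was the 1 of 8 members at least 2-fold lower, where 4.31% of genes were. Batf, a factor of T helper and effector cells, was lowest in CON, at 41.7 CPM against 76.7 CPM in UV and 72.1 CPM in Rux (UV over CON 0.88, 0.43 to 1.34). Subcluster 7, with γδ T cell markers, held 91 CON, 4 UV and 1 Rux cells and Fos at 1301 CPM and Junb at 2722 CPM in CON. Without it the UV over CON ratio of LYM-like cells was -0.93 for Fos, -0.63 for Junb, -0.54 for Jun, -0.04 for Fosb and 0.58 for Batf, so Fos was no longer past 2-fold. The other immediate-early genes took 0.653%, 0.508% and 0.535% of the UMIs of the median LYM-like cell, with 19 of 23 below 0 in UV over CON, and summed epithelial markers were 645, 379 and 477 CPM. Their part was not tested. In the largest T cell subcluster, with αβ T cell markers (63, 84 and 166 cells), Fos was at 386, 240 and 200 CPM. In the Foxp3-led, regulatory T cell-like subcluster Batf was at 102.9, 259 and 109 CPM from 6, 34 and 16 UMIs in 12, 24 and 30 cells. In thinned cells a Batf UMI was found in 4.92%, 12.2% and 12.8% of LYM-like cells of CON, UV and Rux (18.5%, 26.3% and 26.4% before thinning, median depths of 5405 to 5610.5 UMIs) and in 0.189%, 0.0505% and 0.127% of EPI-like cells (median depths of 18204 to 21323 UMIs).

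In MYE-like cells the 10 members were all below 0 in UV over CON, from -0.81 for Fos to -0.15 for Jun, with intervals that included 0 for Jun, Fosl1 and Batf3. Of all 4980 genes tested there, 3062 were also below 0, with a median log2 ratio of -0.095. Fos was at 742, 423 and 490 CPM, Jun at 347, 313 and 212 CPM and Atf3 at 498, 308 and 196 CPM. Atf3 was lowest in Rux and was the 1 of 10 members at least 2-fold lower in Rux over CON (-1.34, -1.48 to -1.21), where 5.78% of genes were. The cluster make-up of MYE-like cells differed between the libraries: cluster 20 (led by Chil3 and Lyz2) held 72 CON, 97 UV and 303 Rux cells, and cluster 28 (led by Ighm and C1qa) 151, 98 and 85. The other immediate-early genes took 1.36%, 1.11% and 1.32% of the UMIs of the median MYE-like cell, with 21 of 24 below 0 in UV over CON, and summed epithelial markers were 495, 237 and 283 CPM. Their part was not tested. Among immune subclusters, 1 (led by Saa3 and Chil3) held 48, 47 and 170 cells, 3 (led by Ccl8 and Folr2) 98, 44 and 24, and 9 (led by Spp1 and Mmp13) 0, 15 and 63. In the C1qa-expressing macrophage-like subcluster 2 (62, 70 and 118 cells), Fos was at 1182, 466 and 1233 CPM. In UV over CON, 5 of the 7 members that passed there were at least 2-fold lower, where 4.13% of 1622 genes tested were. In Rux over UV, 1 of 7 was at least 2-fold higher, where 1.20% of 2257 genes were. Batf3, which is needed for cross-presenting dendritic cells, was at 32.7, 27.3 and 16.8 CPM in MYE-like cells. It was highest in the subcluster with markers of CCR7-positive dendritic cells, at 237, 133 and 142 CPM, from 11, 16 and 25 UMIs in 6, 10 and 12 cells. NEU-like cells (50, 22 and 225 cells) held Batf at 93.6, 158 and 135 CPM, from 12, 7 and 102 UMIs, and no Batf3 UMI in any library.

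Over the 34 class and library sums with 50 or more cells, the members were compared by Pearson correlation of log2(CPM + 1), given as a description since the sums share libraries. Fos correlated with Fosb (0.86), Jun (0.85), Atf3 (0.83), Jund (0.70) and Junb (0.69). Fosb correlated with Jun (0.85) and Jund (0.85), and Junb with Jund (0.82) and Fosl2 (0.78). Batf was below 0 with Jun (-0.43) and Fos (-0.31). Fosl1 was loosely related to the rest, at most 0.53 with Atf3. Outside the members, the genes most like Fos were Egr1 (0.91), Hes1 (0.89) and Thra (0.88). Jun was closest to Vcl (0.93), Hes1 (0.91) and Thra (0.90), Junb to Ccnl1 (0.86), Arf4 (0.85) and Kdm6b (0.84), and Jund to Malat1 (0.88) and Arf4 (0.87). Fosb was closest to Pttg1ip (0.86), Tns1 (0.85) and Pros1 (0.85), Fosl1 to Gja1 (0.78), Ckap4 (0.77) and Il13ra1 (0.76), and Fosl2 to Sf3b1 (0.81), Nup98 (0.81) and Snapc1 (0.80). Atf3 was closest to Syn3 (0.88), Ston1 (0.86) and Mertk (0.85), Batf to Hilpda (0.87), Gpsm3 (0.84) and Cd274 (0.84), and Batf3 to Tmem176a (0.81), Stard8 (0.80) and Itga1 (0.79).

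Genes upstream and downstream of AP-1 were read in FB-like cells. Of 20 listed kinases and regulators 18 passed the filter, with 14 below and 4 above 0 in UV over CON and a median of -0.15, near the -0.11 of all genes. Mapk9, which encodes the JUN kinase JNK2, was past 2-fold, at 41.2 CPM in CON, 132 CPM in UV and 61.9 CPM in Rux, and it was also past 2-fold lower in Rux than in UV (-1.09). Of 10 MAP kinase phosphatases 8 passed: Dusp10, which acts on JNK and p38, was at 51.8, 124 and 141 CPM and Dusp6, which acts on ERK, at 28.0, 11.1 and 13.6 CPM. Dusp1, itself an immediate-early gene, was at 880, 597 and 927 CPM. Among 22 other leucine zipper and partner genes, 20 passed, 10 above and 10 below 0 in UV over CON, with none past 2-fold.

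Of 26 genes known as AP-1 targets, 17 passed, with 11 above and 6 below 0 in UV over CON and a median of 0.08. Only 2 were past 2-fold: Ccnd1, a cyclin, at 111, 35.4 and 34.0 CPM, and Vegfa, an angiogenic factor, at 58.5, 138 and 114 CPM. Mmp3, a matrix metalloproteinase, was at 254, 394 and 578 CPM, and Timp1, a metalloproteinase inhibitor, at 119, 158 and 300 CPM. In Rux over UV the median was 0.00, and 2 targets were at least 2-fold higher and 1 at least 2-fold lower. Among these were Tgfb1, a growth factor of matrix production, at 40.0 and 80.5 CPM (1.01) and Il6, an inflammatory cytokine, at 1121 and 468 CPM (-1.26). Among the 26 other immediate-early genes, Socs3, a feedback inhibitor induced by JAK and STAT3 signalling, was at 890, 427 and 130 CPM. Its Rux over UV ratio was -1.71. Nr4a1 (304 and 615 CPM in UV and Rux, 1.02) and Egr3 (26.7 and 53.8 CPM, 1.01) were higher in Rux than in UV. As given above, Nr4a1 was past 2-fold lower in UV than in CON.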

How the data were processed

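Dorsal skin of 3 groups (CON, UV, Rux; 1 library each) was profiled with the 10x 3′ v3.1 kit. The authors deposited raw UMI counts per gene and barcode. The submitters' notes name Cell Ranger 6.1.2 and mm10, while the matrix headers name Cell Ranger 7.0.0. Barcodes were kept from 200 detected genes upwards and up to a mitochondrial share of 10%, and doublets called by Scrublet (scanpy 1.11.5) at a rate of 0.8% per 1000 cells were removed (1269, 1128 and 923 of 12046, 11359 and 10222). Cells were clustered with Seurat 5.3.0 in R 4.3.3 (2000 variable genes, 30 components, resolution 1.5), leaving out the 50 genes of the members and stress lists. Classes were named from markers. For lymphatic endothelial and pericyte clusters with close scores the naming rule was set after the clusters had been seen, and 1348, 1087 and 683 cells stayed unnamed, among them a cluster of low-UMI cells with fibroblast markers (571, 544 and 446 cells).

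UMIs were summed per class and library (Python 3.11.15, numpy 2.4.6, scipy 1.17.1, pandas 2.3.3), and CPM was given with exact Poisson intervals. Log2 ratios had 0.5 UMI added to each sum and exact conditional binomial intervals. With 1 library per group there was no test, and a gene was counted when it differed 2-fold or more, among genes whose mean reached 10 CPM and whose UMIs in the pair of libraries reached 100. The script was tested on simulated data. Total counts per library were 165337289, 133972374 and 131570327 UMIs, and Batf and Batf3 fell below 10 CPM in several classes. Alternatives covered cell filters, doublets, clustering, scaling, the filter on low values, equal weight per cell and matching on immediate-early genes. All 10 members were named. Genes of the other lists were named as examples where a list was counted, chosen after their values had been seen, and 1 gene of the target list and 1 of the genes most like Jund are not reported here. The members and lists were chosen with earlier results of these data known. Promoters were taken from RefSeq (GRCm38.p6) and gene positions from the GENCODE annotation.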

Additional observations from a re-analysis of the deposited data

Results flagged for a closer look

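Fos differed in direction between cell classes for UV over CON. Its log2 ratio was -1.12 in FB-like, -1.49 in LYM-like and -1.07 in MC-like cells, and 1.18 in MEL-like cells. Each class gave 1 value per library, and the difference between classes was not tested. In MEL-like cells Fos had 1115 UMIs in CON and 722 in UV.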

How the results depend on the processing

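Each group had 1 library, so no replicate could be left out. No paired analysis was possible because each group had 1 library. The alternatives were run on the 8 members that passed in FB-like cells, besides 1 for LYM-like cells. Members past 2-fold in the other classes were not rerun. In FB-like cells neither Fos nor Junb turned direction in UV over CON. In FB-like cells 2 members, Fos and Junb, were past 2-fold in UV over CON. That count was 0 with cells matched in 5 bins of the other immediate-early genes, and 1 (Junb) with subclusters weighted as in CON or without subcluster 0. The ratio of Fos ranged from -1.19 to -0.38 over 9 alternatives and reached -0.31 with the weighting. That of Junb ranged from -1.48 to -0.39. For Rux over UV the count was 0 in every alternative. For Rux over CON it was 1 (Junb). It was 2 with the strict cell filter (at least 500 genes, at most 5% mitochondrial UMIs), without doublet removal, with the members and stress genes kept for clustering, with no CPM minimum and with the low-UMI cluster added. It was 3 at resolution 0.8, and 0 with matched cells or without subcluster 0. Atf3 (-0.998) and Fos (-0.982) lay close to the limit there. In UV over CON, Jun, Atf3, Fosl2 and Jund were above 0 with matched cells, at 0.20, 0.29, 0.16 and 0.24, and with the weighting Jun was at 0.12 and Fosl1 at -0.16. Alternatives on subclusters were chosen after seeing the data. The cause of these shifts was not tested. In FB-like cells the 10 CPM minimum left out Batf, with 179 to 275 UMIs per library, and Batf3, with 29 to 73.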
